A study of Mus musculus with 10 samples.

Results

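The Bcl2 family comprises the proteins that decide whether the outer membrane of the mitochondrion is kept intact or opened during programmed cell death. The genes described here are 10 members of the family, read from 14 array probes whose annotated gene name is that of a member, and all 10 were among the 32209 genes tested. Of these, 4 are anti-apoptotic (Bcl2a1d, Bcl2, Bcl2l1 and Mcl1) and 6 are pro-apoptotic, namely the effectors Bax and Bak1 and the BH3-only genes Bcl2l11, Bid, Bad and Bbc3. The members were chosen by name as a pathway family with measured differences of these arrays in view, and which of those values led to the choice is not recorded. Differences between groups are therefore given as descriptions, and limma's adjusted p is printed only to show where a gene stood in the genome-wide fit.

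The cells were descended from a graft into the midbrain of mice treated with MPTP, a toxin of dopaminergic neurons. Lineage-negative haematopoietic stem and progenitor cells from bone marrow were grafted on one side of the brain 3 days after the last MPTP dose and sorted 1 week later. Hybrid cells carried both RFP, the label of the graft, and YFP, which Cre recombinase switches on when a graft cell fuses with a recipient cell, and unfused cells carried RFP alone. R26Y hybrids came from grafted cells with Cre and RFP in R26Y mice, which carry the YFP reporter. GFAP-Cre hybrids and FoxA2-Cre hybrids came from grafted cells with the R26Y reporter in mice whose Cre is driven by the Gfap promoter, active in astrocytes, or the Foxa2 promoter, active in the ventral midbrain. The unfused cells were a pool from R26Y and GFAP-Cre recipients, called pooled unfused cells, and cells from FoxA2-Cre recipients. With Cre in the recipient, YFP reports fusion with Cre-expressing cells only, so RFP-only cells of those mice may include cells fused with other recipient cells. Each of the 5 groups had 2 replicates, each a pool of 2 mice, and no group without MPTP or without a graft was measured.

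Anti-apoptotic members hold the effectors in check. When a cell is damaged or deprived of growth factors, BH3-only proteins occupy the binding groove of the anti-apoptotic members or engage the effectors directly, and Bax and Bak1 then form pores through which cytochrome c leaves the mitochondrion, Apaf1 assembles and caspases are activated. Blood cells depend on individual members in different ways. Mcl1, a protein with a short half-life, is needed by haematopoietic stem cells and neutrophils, Bcl2 and Bcl2l1 (Bcl-xL) act in lymphocytes and erythroid cells, and the Bcl2a1 genes (A1), induced by inflammatory signals, are expressed in neutrophils, mast cells and other white blood cells. Whether graft cells and hybrid cells differ in these genes bears on how readily they would enter apoptosis, but the arrays measure transcripts and not protein or cell death.

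The probes are 60-base oligonucleotides, and their positions are those the array files give for build mm9. Of these probes, 4 are shown because the part of the coding sequence they read can be recognised, whereas the other probes are given by position only. In the Bcl2 probe, at chr1:108608970-108609029 on the minus strand, capitals mark the codons of the conserved glycine pair of the BH1 domain. In the Bcl2l1 probe at chr2:152655185-152655244 on the minus strand they mark the codons of a tryptophan and a methionine in the frame of the coding sequence. In the Bcl2l11 probe, which spans a splice junction between chr2:127972893 and 127983988 on the plus strand, they mark the codons of the glycine and aspartate of the BH3 domain. In the Bad probe, which spans a splice junction between chr19:7016918 and 7017403 on the plus strand, they mark an ATG in the frame of the coding sequence.
Bcl2: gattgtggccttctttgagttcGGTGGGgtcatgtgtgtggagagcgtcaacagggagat
Bcl2l1: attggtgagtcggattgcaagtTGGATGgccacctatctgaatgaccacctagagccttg
Bcl2l11: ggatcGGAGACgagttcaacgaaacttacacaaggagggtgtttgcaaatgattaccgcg
Bad: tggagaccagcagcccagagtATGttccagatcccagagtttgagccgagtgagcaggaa

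The Bcl2a1d probe lies at chr9:88618165-88618224 on the minus strand. Mouse Bcl2a1 genes are a cluster of near-identical copies. No probe of the array is named Bcl2a1a or Bcl2a1b, so the signal of this probe cannot be assigned to 1 copy of the cluster. The longest stretch that any of the 14 probes shared with a probe of another gene name was 17 bases. The remaining main probes lie at chr3:95466855-95466914 on the plus strand for Mcl1, chr7:52717122-52717181 on the minus strand for Bax, chr17:27156807-27156866 on the minus strand for Bak1, chr6:120843464-120843523 on the minus strand for Bid and chr7:16903403-16903462 on the plus strand for Bbc3. The second Bcl2l1 probe, at chr2:152606404-152606463, was the brighter of the pair and represents the gene below.

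Levels are log2 processed signals scaled to the 75th percentile of their array, so that a level of 0 lies at that percentile and each unit is a doubling. Because probes differ in how well they hybridise, levels are compared between arrays for 1 probe and not between genes. R26Y hybrids, GFAP-Cre hybrids and pooled unfused cells shared 1 slide (6 arrays), and FoxA2-Cre hybrids and FoxA2-Cre unfused cells shared another (4 arrays), so recipient set and slide cannot be told apart and hybrids are compared only with unfused cells of their own slide. On the FoxA2-Cre slide the hybrid arrays lay in row 1 and the unfused arrays in row 2. The labels leave a doubt about FoxA2-Cre unfused replicate 2, since the sample number in its array file is not the number in its description and is that of R26Y hybrid replicate 2. Its levels across genes had a Spearman's rho of 0.719 with FoxA2-Cre unfused replicate 1 and 0.718 with R26Y hybrid replicate 2, against 0.653 to 0.696 with the other 7 arrays. It was kept in the group of its title, and FoxA2-Cre results are also given without it. Spots well above background made up 64.3% to 86.7% on the first slide, with R26Y hybrid replicate 2 the dimmest, and 19.8% to 49.2% on the FoxA2-Cre slide. Across genes, which are not independent replicates, the 2 arrays of a group had a Spearman's rho of 0.678 in R26Y hybrids, 0.904 in GFAP-Cre hybrids and 0.671 in FoxA2-Cre hybrids, against 0.951 in pooled unfused cells and 0.719 in FoxA2-Cre unfused cells. Kit, a marker of progenitor cells, lay between -5.41 and -3.97 on the 10 arrays and was well above background on 7. Both extremes were FoxA2-Cre hybrid arrays, on which it was not well above background. Kit was 1 of 12 listed progenitor genes, of which 11 were tested. Their median log2 difference from unfused cells was 0.11 in R26Y hybrids (7 higher, 4 lower) and 0.10 in GFAP-Cre hybrids (6 higher, 5 lower). In FoxA2-Cre hybrids it was 1.23 (8 higher, 3 lower), where the median of all genes was 0.36.

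Detection set what could be read for each member. By the probe that represents each gene, Bcl2, Bax, Bad and Bbc3 were well above background on all 10 arrays. Bcl2l1 and Mcl1 were so on all 6 arrays of the first slide. Bcl2a1d, Bak1 and Bcl2l11 were well above background on no FoxA2-Cre array, and Bid on 1 of them. By array, 7 and 7 of the 10 members were well above background in R26Y hybrids, 10 and 9 in GFAP-Cre hybrids and 9 and 8 in pooled unfused cells. The counts were 7 and 4 in FoxA2-Cre hybrids and 5 and 5 in FoxA2-Cre unfused cells. In sorted bulk material, fewer cells with a transcript and less transcript per cell cannot be told apart.

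**Figure D1:**
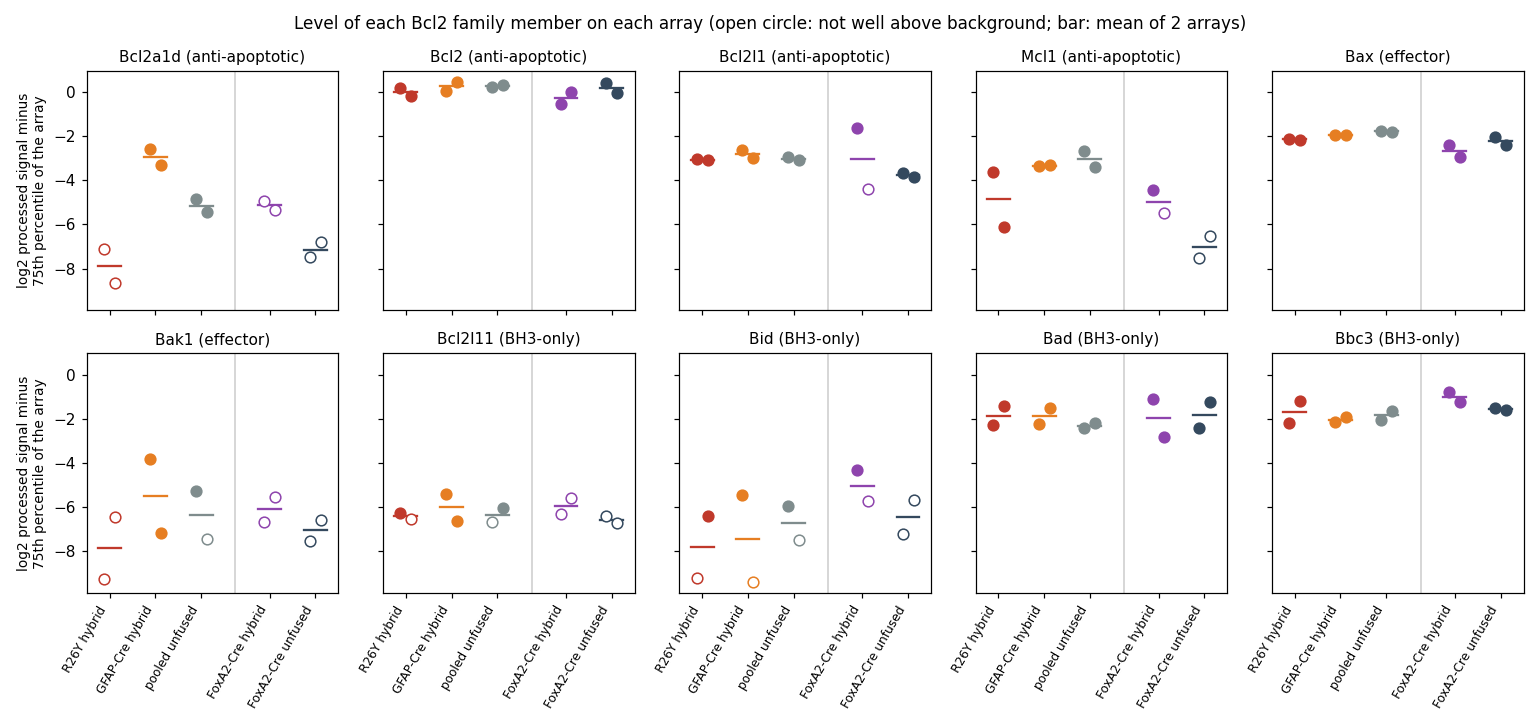
Level of each of the 10 members on each array, as log2 processed signal scaled to the array's 75th percentile. Points are arrays, open where the probe was not well above background, bars are means of 2 arrays and the grey line separates the slides. Bcl2a1d separates the 3 groups of the first slide, whereas Bcl2 and Bax stay within 1.01 and 1.18 log2 units over all 10 arrays.

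Among the anti-apoptotic members, Bcl2a1d had the widest range on the first slide. Its level was -7.10 and -8.65 in R26Y hybrids, where it was not well above background on either array, and -2.56 and -3.30 in GFAP-Cre hybrids, against -4.86 and -5.44 in pooled unfused cells. The processed intensities behind these levels were 14.96 and 3.51 in R26Y hybrids and 278 and 268 in GFAP-Cre hybrids, against 62 and 57.9 in pooled unfused cells. No array of a group overlapped with an array of another group, with GFAP-Cre hybrids on top and R26Y hybrids at the bottom. The pooled SD between replicates was 0.62, less than the median of 0.83 over all genes.

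Relative to pooled unfused cells, Bcl2a1d was 4.65-fold higher in GFAP-Cre hybrids (log2 difference 2.22 ± 0.67, SE) and at least 3.46-fold lower in R26Y hybrids (log2 difference -2.73 ± 0.67). The bound sets the mean of the brighter group against, on each dim array, the higher of the probe's own level and the lowest level of any probe well above background there. Both comparisons share the pooled unfused arrays. Set against each other, GFAP-Cre hybrids were at least 16.1-fold higher than R26Y hybrids (log2 difference 4.95 ± 0.67). It did not pass the correction (limma, adjusted p = 1), and it was 2.11 with normexp background correction and 2.31 with the authors' deposited log2 matrix, both smaller than that bound. The bounds therefore hold for the percentile scaling of the processed signal and not for every treatment of the background.

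The size of the R26Y difference in Bcl2a1d depended on which replicate was kept. Without R26Y hybrid replicate 1 it was -3.50 (limma, adjusted p = 0.0278), and without R26Y hybrid replicate 2 it was -1.95 (limma, adjusted p = 1). For GFAP-Cre hybrids minus R26Y hybrids the same omissions gave 5.72 (limma, adjusted p = 0.00976) and 4.17 (limma, adjusted p = 1). In the first case 2182 genes passed over the whole array, against 0 with all arrays, so the call is not particular to Bcl2a1d. The direction of the R26Y and GFAP-Cre differences was the same under all 18 alternative settings, with sizes of -3.50 to -0.49 in R26Y hybrids and 1.57 to 2.59 in GFAP-Cre hybrids. GFAP-Cre hybrids minus R26Y hybrids ranged between 2.11 and 5.72 over the same settings. Several of these settings could not change a difference of group means for a gene with 1 probe. Among them were lifting the filter, averaging probes and leaving out an array of another group. The count of settings therefore overstates how often the direction was put to the test.

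On the FoxA2-Cre slide no array measured Bcl2a1d well above background. The levels were -4.94 and -5.33 in FoxA2-Cre hybrids, against -7.46 and -6.82 in FoxA2-Cre unfused cells, and no fold is given. On that slide the lowest level at which any probe was well above background was -5.02 and -3.47 on the hybrid arrays, against -6.45 and -4.90 on the unfused arrays, so the hybrid values lay near or below their own arrays' limits. In the authors' deposited log2 matrix the same difference was 0.12.

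Mcl1 stayed close across GFAP-Cre hybrids and pooled unfused cells and varied in the other groups. Its level was -3.61 and -6.13 in R26Y hybrids and -3.37 and -3.30 in GFAP-Cre hybrids, against -2.66 and -3.40 in pooled unfused cells. It was -4.45 and, not well above background, -5.49 in FoxA2-Cre hybrids, against -7.51 and -6.51, neither well above background, in FoxA2-Cre unfused cells. R26Y hybrids lay below pooled unfused cells without overlap and FoxA2-Cre hybrids above their unfused cells without overlap, while GFAP-Cre hybrids overlapped with pooled unfused cells.

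The Mcl1 difference was -1.84 ± 0.88 in R26Y hybrids and -0.31 ± 0.88 in GFAP-Cre hybrids (limma, adjusted p = 1 for each). In FoxA2-Cre hybrids it was 2.04 ± 0.88 (limma, adjusted p = 0.582), with 1 of the 4 arrays well above background, so no fold is given. It was 1.03 with normexp background correction and 0.24 with the authors' deposited log2 matrix. The R26Y value rested largely on 1 array, being -3.10 without R26Y hybrid replicate 1 and -0.58 without replicate 2. The difference between the FoxA2-Cre hybrid effect and that of the other hybrids was 3.12 ± 1.29 and did not pass either (limma, adjusted p = 0.769). The other Mcl1 probe, at chr3:95465543-95465602 and well above background on 4 arrays, gave smaller values with the same signs, -1.19 ± 0.99, -0.17 ± 0.99 and 0.79 ± 0.99 for R26Y, GFAP-Cre and FoxA2-Cre hybrids, the last from arrays on which it was not well above background.

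Bcl2, the founding anti-apoptotic member, was among the most even genes. Its level was 0.19 and -0.21 in R26Y hybrids and 0.04 and 0.47 in GFAP-Cre hybrids, against 0.22 and 0.32 in pooled unfused cells. It was -0.55 and -0.02 in FoxA2-Cre hybrids, against 0.39 and -0.07 in FoxA2-Cre unfused cells. All 10 values lay within 1.01 log2 units of each other, and only 4.58% of genes had a smaller SD between replicates. The differences were -0.28 ± 0.50, -0.02 ± 0.50 and -0.45 ± 0.50 for R26Y, GFAP-Cre and FoxA2-Cre hybrids, all within 1 SE of 0, and each changed sign under at least 1 other processing of the signal.

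Bcl2l1, which encodes Bcl-xL, was even on the first slide. Its level was -3.05 and -3.10 in R26Y hybrids and -2.63 and -2.99 in GFAP-Cre hybrids, against -2.96 and -3.08 in pooled unfused cells. In FoxA2-Cre hybrids it was -1.65 and, not well above background, -4.41, against -3.66 and -3.84 in FoxA2-Cre unfused cells, so the hybrid replicates lay on either side of the unfused ones. The FoxA2-Cre difference of 0.72 ± 0.84 was -0.66 without FoxA2-Cre hybrid replicate 1. The printed Bcl2l1 probe disagreed in part. It gave -4.81 and -5.44 in R26Y hybrids and -4.56 and -5.25 in GFAP-Cre hybrids, against -2.25 and -5.18 in pooled unfused cells, where pooled unfused replicate 1 stood far above the other arrays.

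Of the effectors, Bax was measured well above background on every array and had the smallest replicate spread of the members, with a pooled SD of 0.20, smaller than that of all but 1.3% of genes. Its level was -2.12 and -2.17 in R26Y hybrids and -1.94 and -1.94 in GFAP-Cre hybrids, against -1.75 and -1.81 in pooled unfused cells. It was -2.40 and -2.93 in FoxA2-Cre hybrids, against -2.05 and -2.41 in FoxA2-Cre unfused cells. All 4 hybrid arrays of the first slide lay below both pooled unfused arrays, and on the FoxA2-Cre slide the groups overlapped.

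The Bax differences were -0.37 ± 0.48 in R26Y hybrids, -0.16 ± 0.48 in GFAP-Cre hybrids and -0.44 ± 0.48 in FoxA2-Cre hybrids (limma, adjusted p = 1, 1 and 0.775). The FoxA2-Cre value was 0.02 with normexp background correction. The R26Y value, in a comparison where the median of all genes was -0.26, also depended on the scaling. It was -0.04 with the 75th percentile taken over all probes and -0.02 with the authors' deposited log2 matrix. The standard errors exceed what the close Bax replicates would give because limma draws the variance of each gene towards the value of all genes. Bax was the 1 member for which all 4 hybrid arrays of the first slide lay on the same side of both pooled unfused arrays, which was the case for 5.1% of all genes in that direction and for 4.43% in the other.

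Bak1, the other effector, was near the detection limit. Its level was -9.25 and -6.44 in R26Y hybrids, neither well above background, and -3.84 and -7.17 in GFAP-Cre hybrids, against -5.26 and, not well above background, -7.46 in pooled unfused cells. The 2 GFAP-Cre replicates differed by more than the groups did, and the pooled SD between replicates was 1.61. The differences were -1.49 ± 1.37 in R26Y hybrids and 0.85 ± 1.37 in GFAP-Cre hybrids. On the FoxA2-Cre slide Bak1 was not well above background on any array.

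The BH3-only genes divided by detection into a pair that could be followed on every array and a pair that could not. Bbc3 encodes Puma, a target of p53. Its level was -2.17 and -1.17 in R26Y hybrids and -2.16 and -1.91 in GFAP-Cre hybrids, against -2.05 and -1.65 in pooled unfused cells. In FoxA2-Cre hybrids it was -0.77 and -1.23, against -1.51 and -1.60 in FoxA2-Cre unfused cells, with no overlap. The differences were 0.17 ± 0.54, -0.19 ± 0.54 and 0.55 ± 0.54 for R26Y, GFAP-Cre and FoxA2-Cre hybrids (limma, adjusted p = 1, 1 and 0.752). The FoxA2-Cre shift of Bbc3 exceeded the median of all genes in that comparison by 0.19.

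Bad encodes a BH3-only protein that survival kinases such as Akt keep inactive by phosphorylation. The probe with the ATG had levels of -2.30 and -1.43 in R26Y hybrids and -2.26 and -1.51 in GFAP-Cre hybrids, against -2.44 and -2.19 in pooled unfused cells. In FoxA2-Cre hybrids the levels were -1.12 and -2.83, against -2.41 and -1.26 in FoxA2-Cre unfused cells. The replicates of each FoxA2-Cre group lay more than 1 log2 unit apart and the groups overlapped throughout. The differences were 0.45 ± 0.75, 0.43 ± 0.75 and -0.14 ± 0.75 for R26Y, GFAP-Cre and FoxA2-Cre hybrids. The other Bad probe, at chr19:7026323-7026382 on the plus strand, was well above background on 5 arrays and on no FoxA2-Cre array. It gave 0.32 ± 0.72, 0.99 ± 0.72 and 0.64 ± 0.72 in the same comparisons. Its FoxA2-Cre value thus had the opposite sign, without overlap between the groups, but came from background-level values.

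Bcl2l11 encodes Bim, which acts when growth factors are withdrawn, and Bid links death receptors to mitochondria after cleavage by caspase-8. The probe of the Bcl2l11 BH3 region ranged between -6.68 and -5.41 on the first slide and was well above background on 1 R26Y hybrid array, both GFAP-Cre hybrid arrays and 1 pooled unfused array. Its differences were -0.03 ± 0.61 in R26Y hybrids and 0.34 ± 0.61 in GFAP-Cre hybrids. The other Bcl2l11 probe was well above background on 1 array and was not tested. Bid gave -9.20 and -6.42 in R26Y hybrids and -5.47 and -9.40 in GFAP-Cre hybrids, against -5.96 and -7.49 in pooled unfused cells, with 1 array of each group well above background. Its pooled SD between replicates of 1.73 was the largest of the members. In FoxA2-Cre hybrids Bid was -4.33 and, not well above background, -5.73, against -7.21 and -5.67 in FoxA2-Cre unfused cells, neither well above background. With 1 of these 4 arrays measured no fold is given, and the difference of 1.41 changed sign to -0.33 with quantile normalization.

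**Figure D2:**
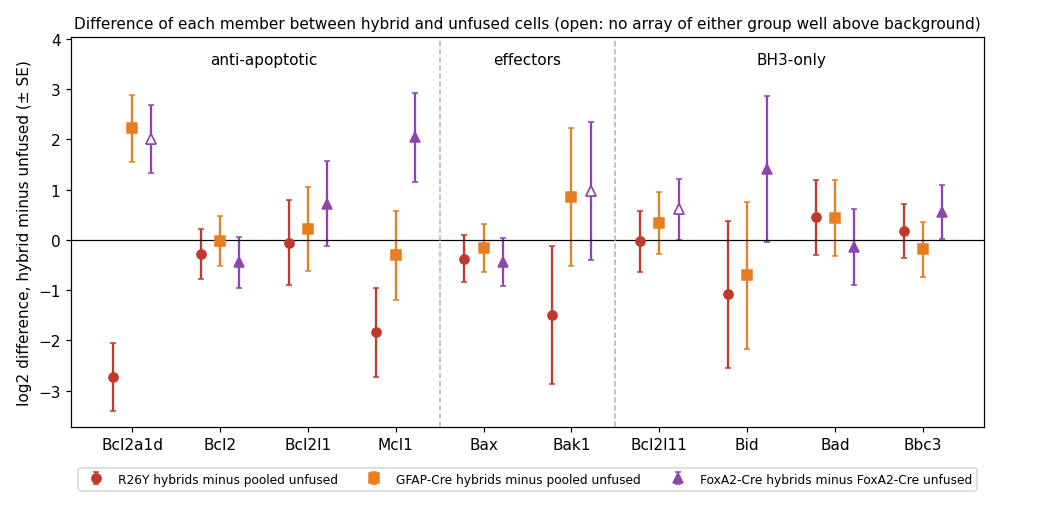
Log2 difference between hybrid and unfused cells of the same slide for each member, with the standard error from limma. Open symbols mark comparisons in which no array of either group was well above background. Bcl2a1d lies at -2.73 in R26Y hybrids and 2.22 in GFAP-Cre hybrids, and 0 of the 10 members passed the correction.

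In the fit over all genes, 0 of 10 members passed an adjusted p of 0.05 in any comparison. The share of all genes that passed was 0% for R26Y hybrids, 0% for GFAP-Cre hybrids and 0.531% for FoxA2-Cre hybrids, where 17 genes (0.0528%) rose and 154 (0.478%) fell. With the authors' deposited log2 matrix that last split was 39 to 131. It was 0% for all hybrids together, 0% for GFAP-Cre hybrids minus R26Y hybrids and 0.171% for the difference between the FoxA2-Cre hybrid effect and that of the other hybrids (0.0217% higher, 0.149% lower). At an unadjusted limma p under 0.05 the counts over all genes were 447 for R26Y hybrids, 522 for GFAP-Cre hybrids, 2785 for FoxA2-Cre hybrids, 1009 for all hybrids and 885 for GFAP-Cre hybrids minus R26Y hybrids.

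Without the doubtful FoxA2-Cre unfused replicate 2, 0 of 10 members passed in FoxA2-Cre hybrids either, while 557 of all genes did (15 rose and 542 fell). The differences were then 2.33 for Bcl2a1d, -0.68 for Bcl2, 0.63 for Bcl2l1 and 2.55 for Mcl1, with the same signs as with all arrays. Bax gave -0.61, Bak1 1.46, Bcl2l11 0.46, Bid 2.18 and Bbc3 0.51, and Bad was the 1 member to change sign, at 0.43 without the array and -0.14 with it. Bcl2a1d, Bak1 and Bcl2l11 were well above background on 0 FoxA2-Cre arrays, and Mcl1 and Bid on 1. The signs of those genes are therefore largely signs of background-level values, set against 1 unfused array. The medians by role were 1.48 and 0.48 for anti-apoptotic and pro-apoptotic members. For the difference between the FoxA2-Cre hybrid effect and that of the other hybrids, Mcl1 gave 3.62 without it (limma, adjusted p = 0.484) and 307 of all genes passed.

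By role, the 4 anti-apoptotic members had a median difference of -1.06 in R26Y hybrids (0 higher, 4 lower), 0.10 in GFAP-Cre hybrids (2 higher, 2 lower) and 1.37 in FoxA2-Cre hybrids (3 higher, 1 lower). The 6 pro-apoptotic members had medians of -0.20 (2 higher, 4 lower), 0.09 (3 higher, 3 lower) and 0.58 (4 higher, 2 lower) in the same comparisons. The median over all genes was -0.26 in R26Y hybrids, 0.04 in GFAP-Cre hybrids and 0.36 in FoxA2-Cre hybrids, so the pro-apoptotic medians lay closer to it than the anti-apoptotic ones in R26Y and FoxA2-Cre hybrids. In R26Y hybrids the low anti-apoptotic values were those of Bcl2a1d and Mcl1, while Bcl2 and Bcl2l1 lay within 1 SE of 0 and each changed sign under at least 1 other scaling. In FoxA2-Cre hybrids the high values were those of Bcl2a1d and Mcl1 again, of which 1 hybrid array measured Mcl1 and none measured Bcl2a1d well above background.

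The role medians varied between replicates. Taking each array against the mean of the unfused arrays on its slide, the anti-apoptotic median was -0.33 and -1.79 on the R26Y hybrid arrays, and the pro-apoptotic median -0.34 and 0.11. On the GFAP-Cre hybrid arrays the anti-apoptotic median was 0.08 and 0.11 and the pro-apoptotic median 0.50 and -0.22. On the FoxA2-Cre hybrid arrays these were 2.15 and 0.67 for anti-apoptotic members and 0.56 and 0.52 for pro-apoptotic members. The anti-apoptotic median thus lay clearly below the pro-apoptotic one on R26Y hybrid replicate 2 and above it on FoxA2-Cre hybrid replicate 1, and on the other 4 hybrid arrays the order was mixed.

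**Figure D3:**
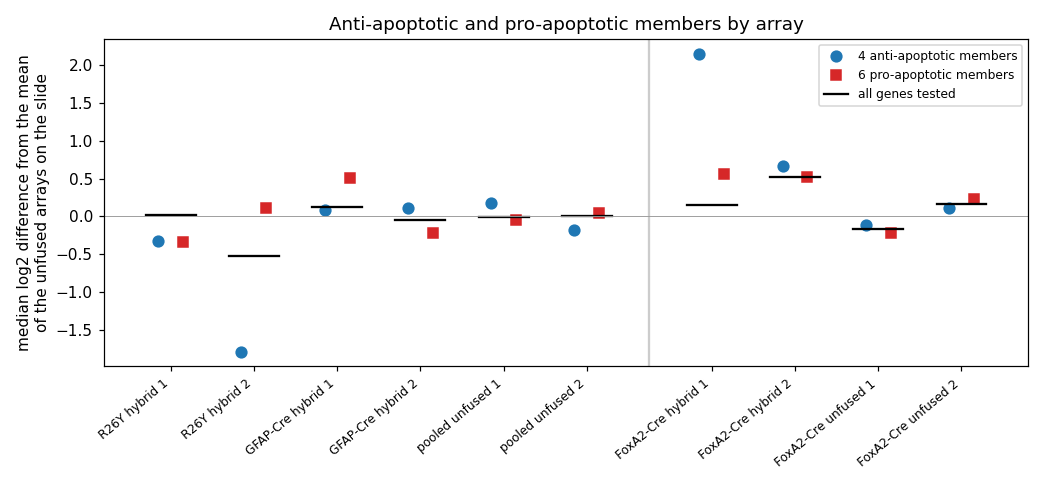
Median log2 difference of the 4 anti-apoptotic members (circles) and the 6 pro-apoptotic members (squares) from the mean of the unfused arrays on the same slide, by array, with the median of all genes as a bar. The widest gaps between roles are on R26Y hybrid replicate 2 (-1.79 and 0.11) and FoxA2-Cre hybrid replicate 1 (2.15 and 0.56).

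Counting members whose arrays did not overlap between groups, 0 lay higher and 4 lower in R26Y hybrids, where 10.6% of all genes lay higher and 19.5% lower. In GFAP-Cre hybrids 1 lay higher and 1 lower, where the shares of all genes were 19.9% and 14.4%. In FoxA2-Cre hybrids 4 lay higher and 0 lower, where the shares were 26.5% and 10.6%, and for GFAP-Cre hybrids against R26Y hybrids 4 lay higher and 0 lower, where they were 20.2% and 7.5%. The 4 members lower in R26Y hybrids were Bcl2a1d, Bcl2, Mcl1 and Bax. Among them, Bcl2a1d was not well above background on either R26Y hybrid array. Bcl2 was separated narrowly, at 0.19 on R26Y hybrid replicate 1 against 0.22 on pooled unfused replicate 1. The Bcl2 difference changed sign to 0.05 under another setting, and that of Bax was -0.02 with the authors' deposited log2 matrix. The 4 higher in FoxA2-Cre hybrids were Bcl2a1d, Mcl1, Bcl2l11 and Bbc3. Of these, Bbc3 alone was well above background on all 4 FoxA2-Cre arrays, Mcl1 was so on 1, and Bcl2a1d and Bcl2l11 on none, so their order is among background-level values on arrays with different limits. The 4 higher in GFAP-Cre than in R26Y hybrids were Bcl2a1d, Bcl2l1, Mcl1 and Bax, of which Bcl2l1 and Bax changed sign under each of the other 3 scalings and with normexp background correction.

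Taking all hybrids together against all unfused cells, with the slide as a covariate, brought the opposite signs of Bcl2a1d together in a difference of 0.71 ± 1.17. Mcl1 gave 0.26 ± 0.78 and Bax -0.34 ± 0.28. The anti-apoptotic and pro-apoptotic medians were 0.31 and 0.21, against 0.03 for all genes.

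Other genes of the cell death pathway, in lists drawn up with earlier results of these arrays known, also had no member past the correction in the 3 comparisons of hybrids with unfused cells. Of 16 further Bcl2-family genes, 10 were tested, with medians of -0.20, 0.11 and 0.31 in R26Y, GFAP-Cre and FoxA2-Cre hybrids. Bnip3, a BH3-like protein of mitophagy, gave -1.71 ± 0.78 in FoxA2-Cre hybrids (limma, adjusted p = 0.594), with levels of -4.31 and -3.19 in FoxA2-Cre hybrids, against -2.13 and -1.94 in FoxA2-Cre unfused cells. Pmaip1, which encodes the BH3-only protein Noxa, was between -0.51 and -0.17 on 5 of the 6 arrays of the first slide and -8.61 on R26Y hybrid replicate 2. On the FoxA2-Cre slide its replicates also lay far apart, at -6.45 and 6.70 in hybrids, against 1.75 and -6.52 in unfused cells. It was well above background on 7 of the 10 arrays.

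Downstream of the pore, 13 of 13 genes of cytochrome c release and caspase activation were tested, with medians of -0.24, -0.06 and 0.39 in R26Y, GFAP-Cre and FoxA2-Cre hybrids. Casp9, the initiator caspase of the apoptosome, had levels of -8.62 and -9.57 in GFAP-Cre hybrids, neither well above background, against -3.91 and -6.18 in pooled unfused cells, a difference of at least 3.89-fold lower (limma, adjusted p = 1). Apaf1, its scaffold, was 1.56 ± 0.67 in FoxA2-Cre hybrids (limma, adjusted p = 0.578), with 1 array of each FoxA2-Cre group well above background. Cycs, cytochrome c itself, was well above background on neither FoxA2-Cre hybrid array and on both unfused ones. Its levels were -7.41 and -5.37 in FoxA2-Cre hybrids, against -5.41 and -2.87 in FoxA2-Cre unfused cells, so the groups overlapped. By group means it was at least 1.07-fold lower in FoxA2-Cre hybrids (limma, adjusted p = 0.616).

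Of 9 inhibitors of apoptosis, 6 were tested, with medians of -0.75, -0.22 and 0.54 in R26Y, GFAP-Cre and FoxA2-Cre hybrids. Naip2 was well above background on all 10 arrays and was 1.78 ± 0.69 in FoxA2-Cre hybrids (limma, adjusted p = 0.531). Birc5, the mitotic protein survivin, was at least 18.6-fold lower in FoxA2-Cre hybrids (limma, adjusted p = 0.571). Its level was -6.73 and -4.30 in FoxA2-Cre hybrids, neither well above background, against 0.30 and -0.36 in FoxA2-Cre unfused cells, and on the first slide it was -8.16 on R26Y hybrid replicate 2 and between -0.69 and 0.17 on the other 5 arrays.

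The death receptor arm, which reaches mitochondria through Bid, had 8 of 10 genes tested and medians of 0.37, -0.29 and -0.92 in R26Y, GFAP-Cre and FoxA2-Cre hybrids. The FoxA2-Cre value depended on single arrays, being 0.23 without FoxA2-Cre unfused replicate 1 and -0.11 without FoxA2-Cre hybrid replicate 1, and the mean levels of the list overlapped, at -5.04 and -3.84 in FoxA2-Cre hybrids, against -2.58 and -4.36 in FoxA2-Cre unfused cells. Tnfrsf1a, a receptor of tumour necrosis factor, was -1.57 ± 0.52 in FoxA2-Cre hybrids (limma, adjusted p = 0.460), at -3.40 and -3.58 in FoxA2-Cre hybrids, against -2.25 and -1.58 in FoxA2-Cre unfused cells. Ripk1, a kinase downstream of it, was well above background on neither R26Y hybrid array and at least 1.91-fold lower there than in pooled unfused cells (limma, adjusted p = 1). Upstream regulators of the family, among them Trp53, Foxo3 and Ddit3, had 10 of 10 genes tested and medians of -0.57, -0.01 and 0.19. Without the doubtful FoxA2-Cre unfused replicate 2 the FoxA2-Cre medians were -0.20 for the further Bcl2-family genes, 0.34 for caspase activation, 0.18 for inhibitors of apoptosis, -1.24 for the death receptor arm and 0.87 for the upstream regulators. The sign of the first thus depended on that array.

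Because Bcl2a1 genes are expressed in white blood cells, the marker lists of neutrophils and microglia are given beside the Bcl2a1d result, with 14 of 15 genes tested in each. The mean level of the neutrophil list was -3.09 and -4.36 in R26Y hybrids and -2.82 and -3.44 in GFAP-Cre hybrids, against -1.72 and -2.37 in pooled unfused cells. In FoxA2-Cre hybrids it was -4.23 and -3.05, against -1.19 and -1.69 in FoxA2-Cre unfused cells. The mean of the neutrophil list was thus lower in each kind of hybrid than in unfused cells of the slide, whereas Bcl2a1d was higher in GFAP-Cre hybrids and lower in R26Y hybrids. By gene, 1 was higher and 13 lower in R26Y hybrids, and 2 were higher and 12 lower in GFAP-Cre hybrids. In FoxA2-Cre hybrids 4 were higher and 10 lower. There 2 of the lower genes passed the correction, where 0.478% of all genes passed as lower.

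The microglia list averaged -2.90 and -2.23 in R26Y hybrids and -2.03 and -2.43 in GFAP-Cre hybrids, against -2.97 and -3.09 in pooled unfused cells, and -1.44 and -1.83 in FoxA2-Cre hybrids, against -2.59 and -2.73 in FoxA2-Cre unfused cells. Its average was higher in each kind of hybrid than in unfused cells. In R26Y hybrids 9 of its genes were higher and 5 lower than in pooled unfused cells, with a median difference of 0.21, and in GFAP-Cre hybrids 12 were higher and 2 lower, with a median of 0.62. The part of microglial or neutrophil RNA in the Bcl2a1d differences was not tested.

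**Figure D4:**
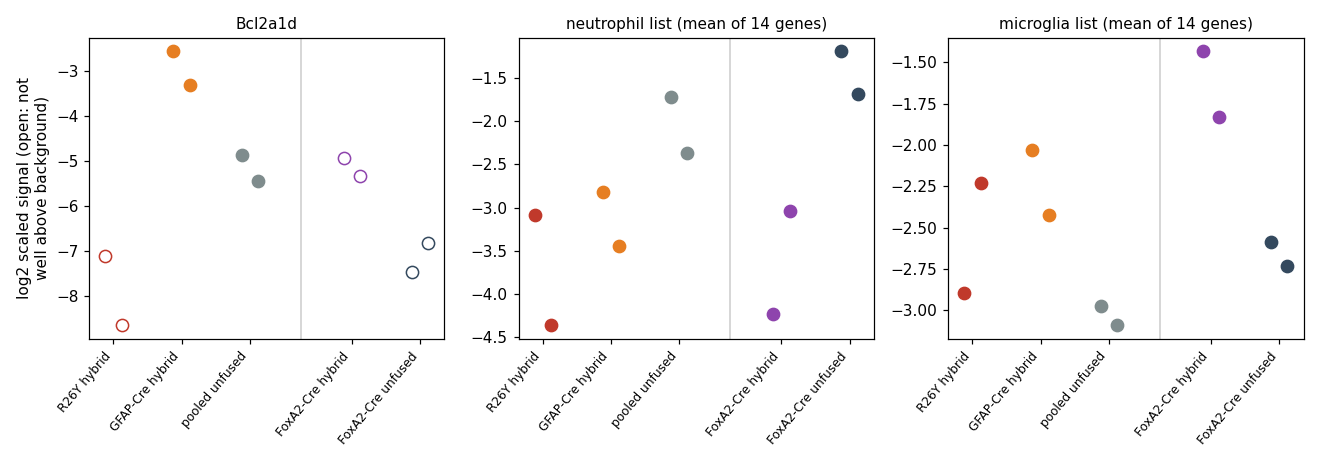
Bcl2a1d level and the mean level of 14 neutrophil and 14 microglia marker genes on each array (log2 scaled signal, each panel with its own axis). GFAP-Cre hybrids stand highest on the first slide for Bcl2a1d at -2.56 and -3.30, whereas pooled unfused cells stand highest for the neutrophil list at -1.72 and -2.37.

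Genes whose levels followed a member most closely were found by Pearson's r over the 10 arrays after centring each slide. They are given as a description, since the arrays share slides and groups and picking the closest of many genes by itself favours high r. For Bcl2a1d these were Slc35b1, Gm4862 and Nps (r = 0.956, 0.955 and 0.951). For Mcl1 they were Nectin1, Uri1 and Nsun6 (r = 0.991, 0.981 and 0.978), for Bcl2 Krt73, Rdh8 and Rpl26 (r = 0.937, 0.936 and 0.929), and for Bax Slc50a1, Cyp2c37 and Rdh18-ps (r = 0.943, 0.925 and 0.919). Among all pairs of the members themselves, the strongest correlations were those of Bcl2a1d and Mcl1 (r = 0.751), Bak1 and Bid (r = 0.781) and Bcl2 and Bid (r = -0.708). Bak1 and Bid were near the detection limit. Bcl2a1d was well above background on 4 of the 10 arrays and Mcl1 on 7, with 0 and 1 of these on the FoxA2-Cre slide. Each of these correlations therefore rests in part on background-level values.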

How the data were processed

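Sorted cells were profiled on 1-colour arrays. Per the labels' protocols, RNA of pools of 2 mice was amplified as whole transcriptome and its cDNA (500 ng) labelled with Cy3. The authors deposited the spot tables of Agilent Feature Extraction 10.7.3.1; their processed signal is an intensity that, per the file headers, is background-subtracted and not normalised between arrays. A second table that the authors deposited holds log2 values, whose tool and scaling are not given in the sources used here. It follows the rank order of mean minus background (Spearman's rho 1), with medians of 7.38 and 6.26 on the 2 slides.

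Levels were log2 processed signal scaled to the array's 75th percentile over those spots that were well above background on every array. Non-uniform and outlier spots were dropped and the remaining spots of each probe averaged. Probes well above background on at least 2 arrays were kept, and the probe with the highest mean represented a gene. limma 3.58.1 in R 4.3.3 fitted 5 group means with a shared spread (two-sided tests, Benjamini-Hochberg adjustment over 32209 genes, threshold 0.05). The fit for all hybrids instead had hybrid or unfused state, with the recipient set as a covariate. The FoxA2-Cre hybrid effect minus that of the other hybrids was fitted with recipient set, hybrid or unfused state and their interaction. Neither of these fits told R26Y and GFAP-Cre hybrids apart, so differences between them entered the spread. The fit was tested on simulated data in which every gene and array had the same spread. That test cannot show how the fit behaves with the unequal spreads of the real arrays. With 2 arrays a group, the number of arrays limits the precision, and p-values measure the spread between pools.

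Members and lists were chosen with earlier results of these data known. The 10 members are named with every probe of theirs, up to 4 genes of each other apoptosis list by smallest p, and the 3 best correlated genes of Bcl2a1d, Bcl2, Mcl1 and Bax. Pmaip1 was named after its values were seen where that rule does not give it. Replicate numbers did not pair the samples: deviations of same-numbered arrays correlated between -0.071 and 0.073.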

Additional observations from a re-analysis of the deposited data

How the results depend on the processing

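Precision is limited by 2 arrays a group, by the dim FoxA2-Cre arrays and by R26Y hybrid replicate 2. The Bcl2a1d, Bak1, Bcl2l11 and Bid probes drop out when 5 arrays must be well above background. Scan date coincided with slide, so a block for it was not run. Below, the difference between recipient sets means the FoxA2-Cre hybrid effect minus that of the other hybrids, which cannot be fitted on 1 slide. It is not a difference in level between the sets. No result that passed a threshold changed direction.

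The count of 171 genes in FoxA2-Cre hybrids was 0 with the 4 arrays of that slide alone, where the fit has fewer samples (1410 at an unadjusted limma p under 0.05), and 106 with the replicate number as a block. The 55 genes of the difference between recipient sets became 34 with the replicate block and 34 with normexp background correction. The block changed no other call; same-numbered arrays share only a number.

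The median of all genes was -0.26 in R26Y hybrids and between 0.00 and 0.08 under the other scalings, and 0.36 in FoxA2-Cre hybrids and between 0.03 and 0.71 under them. The anti-apoptotic median in R26Y hybrids was -0.36 with normexp and -0.28 with the filter at 5 arrays. In FoxA2-Cre hybrids it was 0.18 with the authors' log2 matrix. For the difference between recipient sets it was 0.59 with normexp, 0.28 with the authors' matrix and 0.64 with the filter at 5 arrays. The pro-apoptotic median in R26Y hybrids was 0.13 with the percentile over all probes and 0.17 with the filter at 5 arrays. In FoxA2-Cre hybrids it was 0.17 with quantile normalization, 0.039 with the authors' matrix and -0.14 with the filter at 5 arrays. For the difference between recipient sets these settings gave 0.04, -0.034 and -0.17. For GFAP-Cre hybrids minus R26Y hybrids the pro-apoptotic median was 0.29, and -0.075 with the percentile over all probes, -0.15 with quantile normalization, -0.033 with the authors' matrix and -0.018 with the filter at 5 arrays. For all hybrids it was -0.14 on the first slide alone. The cause was not tested for these shifts, except that the filter at 5 arrays leaves 3 members of each role.

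Leaving out 1 array at a time gave 0 to 2317 genes for R26Y hybrids (2317 without R26Y hybrid replicate 1), 0 for GFAP-Cre hybrids and for all hybrids, 61 to 557 for FoxA2-Cre hybrids (557 without FoxA2-Cre unfused replicate 2), 0 to 307 for the difference between recipient sets (307 without FoxA2-Cre unfused replicate 2) and 0 to 2182 for GFAP-Cre hybrids minus R26Y hybrids. In these fits the lone array is assumed to vary like the other groups. The anti-apoptotic median ranged between -1.79 and -0.33 in R26Y hybrids, 0.08 and 0.17 in GFAP-Cre hybrids, 0.67 and 2.15 in FoxA2-Cre hybrids, -0.16 and 0.64 in all hybrids, 0.88 and 2.24 for the difference between recipient sets and 0.26 and 1.62 for GFAP-Cre hybrids minus R26Y hybrids. The pro-apoptotic median ranged between -0.34 and 0.11 in R26Y hybrids, -0.22 and 0.50 in GFAP-Cre hybrids, 0.48 and 0.58 in FoxA2-Cre hybrids, -0.01 and 0.34 in all hybrids, 0.25 and 0.61 for the difference between recipient sets and -0.11 and 0.59 for GFAP-Cre hybrids minus R26Y hybrids. Added after seeing the data, pathway list medians without 1 array ranged in FoxA2-Cre hybrids between -0.85 and 0.45 (further Bcl2-family genes), 0.11 and 0.89 (caspase activation), 0.18 and 0.80 (inhibitors), -1.24 and 0.23 (death receptors) and -0.32 and 0.87 (upstream regulators). In R26Y hybrids death receptors gave -0.07 and upstream regulators 0.13 without R26Y hybrid replicate 2, and caspase activation -1.42 without pooled unfused replicate 2. The largest shift in GFAP-Cre hybrids was for inhibitors, 0.17 without GFAP-Cre hybrid replicate 2.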
